A study of Mus musculus with 5 samples.

Results

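The genes described here encode the SMN complex: Smn1 and its partners Gemin2, Ddx20 (Gemin3), Gemin4, Gemin5, Gemin6, Gemin7, Gemin8 and Strap (Unrip). They were found as the probe sets whose single gene symbol in the platform annotation is one of these 9 names, which gave 11 of 28187 tested probe sets, or 9 of the 19937 genes with a probe set of their own. Gemin6 and Gemin8 have 2 probe sets each and the other genes 1. No probe set names one of them together with another gene.

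In the cytoplasm the SMN complex places a ring of Sm proteins on spliceosomal small nuclear RNAs (snRNAs), after which the particles return to the nucleus and pass through Cajal bodies. SMN binds Gemin2, and the other Gemins join as modules that recognise the snRNA, hold the Sm proteins or link the subunits. Loss of SMN causes spinal muscular atrophy, a disease of motor neurons. The present values concern the messenger RNAs of these subunits in the precipitates, not the proteins.

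RNA was recovered by anti-FLAG precipitation from NSC-34 cells, a mouse hybrid line of neuroblastoma and spinal cord motor neurons, and measured on 5 single-colour Affymetrix arrays. The FLAG-SMN IP group (n = 3) came from cells containing a 3XFLAG-flSMN construct, and the control IP group (n = 2) from NSC-34 cells without a FLAG construct. Both kinds of cell were differentiated in 1% serum, given 3 µg/ml doxycycline for 3 days, exposed to 400 mJ/cm2 of ultraviolet light and taken through the same anti-FLAG M2 beads. The labels do not say whether the tagged line was 1 clone, what promoter drove the construct, whether its sequence was mouse or human, or whether replicates were separate cultures. P-values therefore measure only the spread between these arrays, which may be technical.

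FLAG-SMN IP replicate 1 stood apart, with Pearson r across probe sets of 0.964 and 0.968 to its own group's other arrays, against 0.989 between those. The difference of each SMN complex gene at its brightest probe set is therefore also given without it. Replicates 2 and 3 of FLAG-SMN IP had r of 0.968 to 0.977 with the control IP arrays, each higher than with replicate 1. The limma fit called 9 of 28187 probe sets (0.0319%) at an adjusted p under 0.05, with 4 higher and 5 lower in FLAG-SMN IP. Of the 8 general neuronal markers, 7 lay above the median of the presumed control probe sets on every array, and Stmn2 did not on any array. The median neuronal marker was at 5.98 to 7.42 on the FLAG-SMN IP arrays and at 7.54 to 7.74 on the control IP arrays. These medians did not overlap, but most of the single genes did. Of the 8 genes, 3 had FLAG-SMN IP below both controls and 0 above, beside 14.8% and 11.0% of all genes. Among the overlapping ones, FLAG-SMN IP replicate 1 was above both controls for Nefm, Gap43, Stmn2 and Tubb3 but not Nefl. Of 7 motor neuron markers with a probe set of their own, 3 (Isl1, Isl2 and Slc18a3) were above the presumed controls on all 5 arrays. Chat, the acetylcholine synthesis enzyme that defines cholinergic neurons, was above on 4 arrays, as was Lhx3. The motor neuron transcription factor gene Mnx1 and the choline transporter gene Slc5a7 were above on 0. Markers above on all arrays numbered 1 of 4 for astrocytes, 1 of 3 for oligodendrocytes, 1 of 4 for microglia and blood and 3 of 4 for fibroblasts, and the array medians of these 4 lists overlapped between the groups. The medians of the presumed controls were 4.30 to 4.55, below those of all tested probe sets, 5.25 to 5.39. Many presumed control probe sets themselves exceed such a cutoff. The share of all genes above it on every array was not computed, so these counts do not show that a cell type was present. The part of these markers in the values below was not tested.

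Smn1 encodes the subunit that carried the tag in the FLAG-SMN cells. It stood at log2 signals of 9.89, 9.50 and 9.46 in FLAG-SMN IP replicates 1, 2 and 3, against 8.10 and 7.64 in control IP replicates 1 and 2. All 3 FLAG-SMN IP arrays lay above both control IP arrays, and the lowest of them exceeded the higher control by 1.35 log2 units. The spread within the groups was smaller than this gap, at 0.43 across FLAG-SMN IP and 0.46 between the control IP arrays. The log2 difference was 1.74 (SE 0.23, 95% confidence interval 1.19 to 2.30), which is 3.35-fold with an interval of 2.28 to 4.91. Of all tested probe sets, 99.7% had a smaller signed difference, and Smn1 ranked 52 by unadjusted p. The adjusted p in limma was 0.0877, above the threshold. Leaving out FLAG-SMN IP replicate 1 gave 1.61, which passed (limma adjusted p = 0.0259); without any other single array the difference ranged from 1.51 to 1.97 and did not pass.

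Only the FLAG-SMN cells carry the construct, so RNA transcribed from it and RNA of the cells' own Smn1 gene cannot be told apart where a probe matches both. RNA of the whole lysates was not analysed here. A higher signal in the precipitate and a higher level in the cells likewise cannot be told apart.

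**Figure D1:**
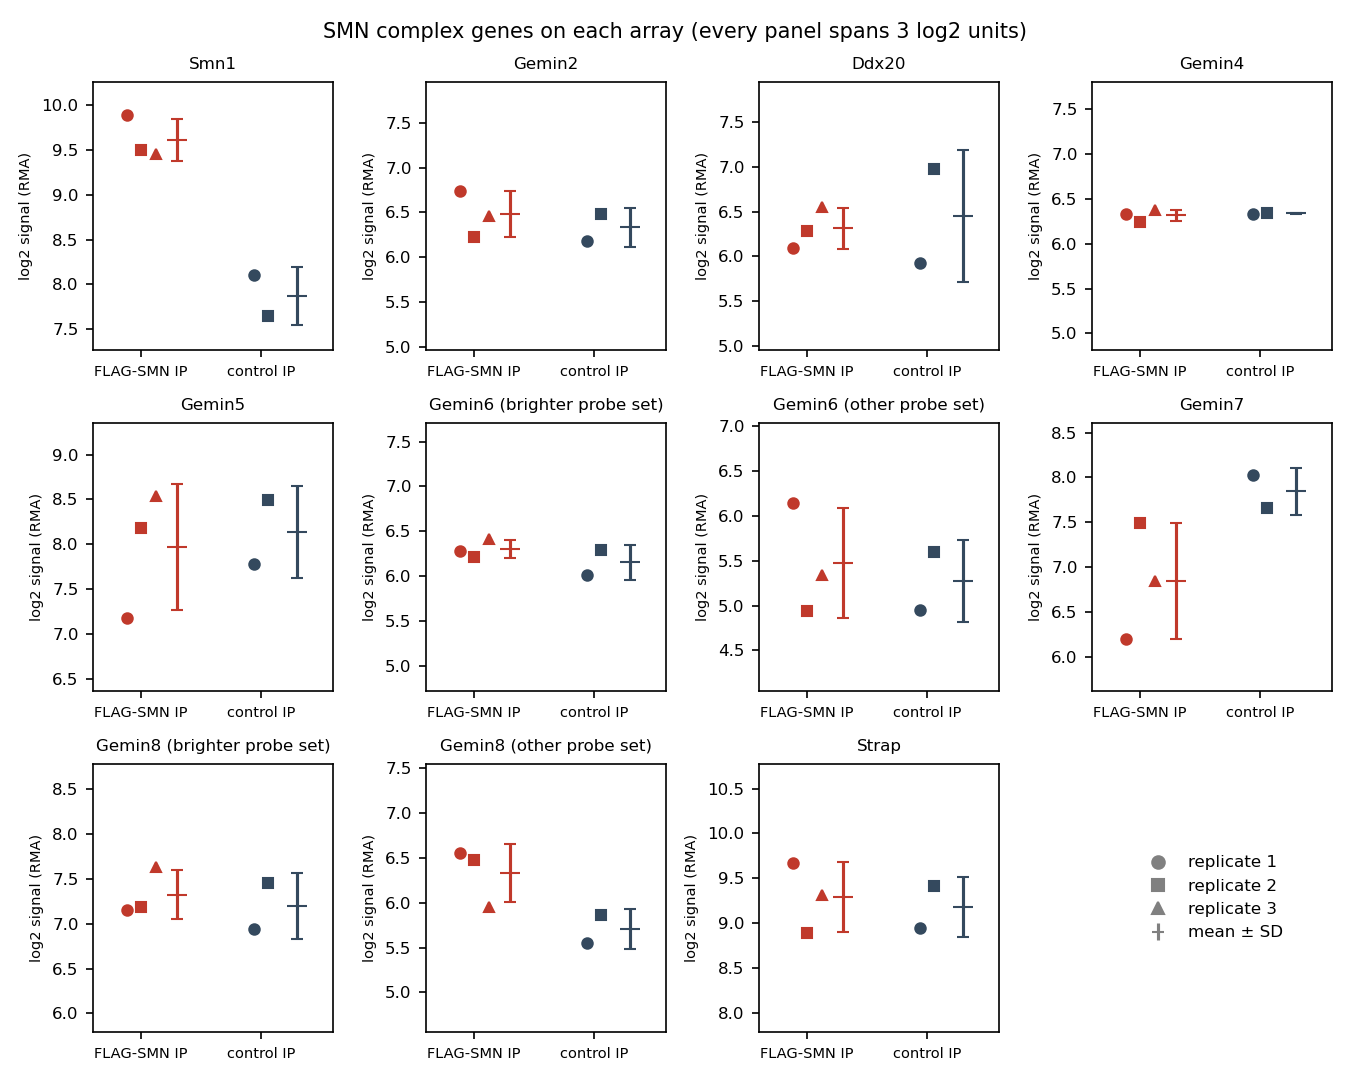
Log2 signal (RMA, vertical axis) of the 11 probe sets of the SMN complex genes on each array, with FLAG-SMN IP (red, n = 3) left of control IP (dark blue, n = 2), 1 marker shape per replicate number and bars for mean ± SD. Every panel spans the same number of log2 units. The groups are apart for Smn1, for Gemin7 and for the dimmer Gemin8 probe set, and overlap in the other panels.

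Gemin2 encodes the subunit that binds SMN directly and holds the Sm proteins before they close on the snRNA. Its signals were 6.74, 6.23 and 6.46 in FLAG-SMN IP, against 6.18 and 6.49 in control IP. The groups overlapped, and the difference of 0.14 was smaller than its own SE of 0.22 (limma adjusted p = 0.942). Its 95% confidence interval ran from -0.38 to 0.67, and without FLAG-SMN IP replicate 1 the value was 0.013. The Smn1 interval begins above the end of that of Gemin2.

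Ddx20 and Gemin4 encode a module of the complex, a DEAD-box RNA helicase and the protein that binds it. Ddx20 was at 6.10, 6.28 and 6.56 in FLAG-SMN IP and at 5.93 and 6.98 in control IP. The control arrays lay on either side of all 3 FLAG-SMN IP arrays, so the spread within the control group decided the interval of -0.92 to 0.64 around a difference of -0.14 (limma adjusted p = 0.973). Leaving out control IP replicate 1 gave -0.66 and leaving out control IP replicate 2 gave 0.38, whereas leaving out FLAG-SMN IP replicate 1 gave -0.032. Gemin4 was at 6.33, 6.25 and 6.38 in FLAG-SMN IP and at 6.33 and 6.34 in control IP. All 5 arrays lay within 0.13 log2 units, the narrowest range among the 9 genes. The Gemin4 interval, -0.42 to 0.38 around -0.022, was also the narrowest of the 9 (limma adjusted p = 0.996), and the value was -0.027 without FLAG-SMN IP replicate 1.

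Gemin5 encodes the WD-repeat subunit that recognises snRNAs by sequence and structure. Its signals were 7.18, 8.18 and 8.53 in FLAG-SMN IP, against 7.78 and 8.50 in control IP. FLAG-SMN IP replicate 1 was the lowest of the 5 arrays with a difference of -1.18 from the mean of replicates 2 and 3, while replicate 3 was the highest. The difference was -0.17 with an interval of -1.18 to 0.84 (limma adjusted p = 0.976), the widest of the 9 genes. Without FLAG-SMN IP replicate 1 it was 0.22. The interval therefore holds a 2-fold lower level and no difference alike, while a 2-fold higher one lies outside it.

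Gemin6 and Gemin7 encode a pair of proteins with an Sm-like fold that bind each other. The brighter Gemin6 probe set was at 6.28, 6.21 and 6.41 in FLAG-SMN IP and at 6.02 and 6.29 in control IP. The groups overlapped, with a difference of 0.15 and an interval of -0.29 to 0.59 (limma adjusted p = 0.916). Without FLAG-SMN IP replicate 1 that difference was 0.16. The dimmer Gemin6 probe set gave 6.15, 4.94 and 5.34 in FLAG-SMN IP and 4.95 and 5.60 in control IP. Here FLAG-SMN IP replicate 1 was the highest array, and the groups again overlapped (difference 0.20, limma adjusted p = 0.961).

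Gemin7 was the gene with the lowest difference of the 9. Its signals were 6.19, 7.49 and 6.84 in FLAG-SMN IP, against 8.03 and 7.66 in control IP. Every FLAG-SMN IP array lay below both control IP arrays, although replicate 2 did so by only 0.17 (gap -0.17). The FLAG-SMN IP mean was 6.84 ± 0.65 (SD, n = 3) and the control IP mean 7.85 ± 0.26 (SD, n = 2). The log2 difference was -1.0 (SE 0.37, interval -1.89 to -0.12), 2.01-fold lower in FLAG-SMN IP, with an unadjusted p of 0.0318 in limma. It did not pass after adjustment (limma adjusted p = 0.413), and it was smaller without FLAG-SMN IP replicate 1, at -0.68 (adjusted p = 0.339). With each of the other arrays left out it stayed between -1.33 and -0.82, with no adjusted p under the threshold. The difference between Gemin7 and its binding partner Gemin6 was not tested; the Gemin6 interval and that of Gemin7 overlap between -0.29 and -0.12.

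Gemin8 links the Gemin6 and Gemin7 pair to SMN, and its 2 probe sets gave different pictures. The brighter was at 7.15, 7.19 and 7.64 in FLAG-SMN IP and at 6.94 and 7.46 in control IP, overlapping, with a difference of 0.13 (interval -0.47 to 0.72, limma adjusted p = 0.963) that was 0.22 without FLAG-SMN IP replicate 1. The dimmer was at 6.56, 6.47 and 5.96 in FLAG-SMN IP and at 5.55 and 5.86 in control IP. There all FLAG-SMN IP arrays lay above both controls, by 0.094 at the closest. The difference of this probe set was 0.62 (SE 0.24, interval 0.042 to 1.20, unadjusted p = 0.0389), and it did not pass after adjustment in limma (adjusted p = 0.439).

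In the array's ID order, the brighter Gemin8 probe set and the dimmer Gemin6 probe set stand among genes of other chromosomes than their own. Gemin8 lies on chromosome X in the RefSeq annotation of mouse, and the 10 annotated probe sets nearest in ID to the dimmer probe set all name genes of chromosome X. The 10 nearest the brighter one all name genes of chromosome 13. For Gemin6, a gene of chromosome 17, the 10 neighbours of the brighter probe set are all on chromosome 17, while 9 of 10 neighbours of the dimmer one name genes of chromosome 6. For the other 7 genes the most frequent chromosome of the neighbours is the gene's own, with 8 to 10 of 10. Whether the probe sets placed elsewhere read a second copy of the gene was not tested, so the brighter Gemin8 and the dimmer Gemin6 values are uncertain as measures of these genes. Neighbours were not looked at for genes outside the complex, so the same limit may hold for any gene named below.

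Strap encodes a WD-repeat protein that joins the complex through Gemin7. Its signals were 9.67, 8.89 and 9.31 in FLAG-SMN IP and at 8.95 and 9.42 in control IP. FLAG-SMN IP replicate 1 was the highest array and replicate 2 the lowest, so the groups overlapped. The difference was 0.11 (interval -0.56 to 0.78, limma adjusted p = 0.977), and it was -0.078 without FLAG-SMN IP replicate 1.

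**Figure D2:**
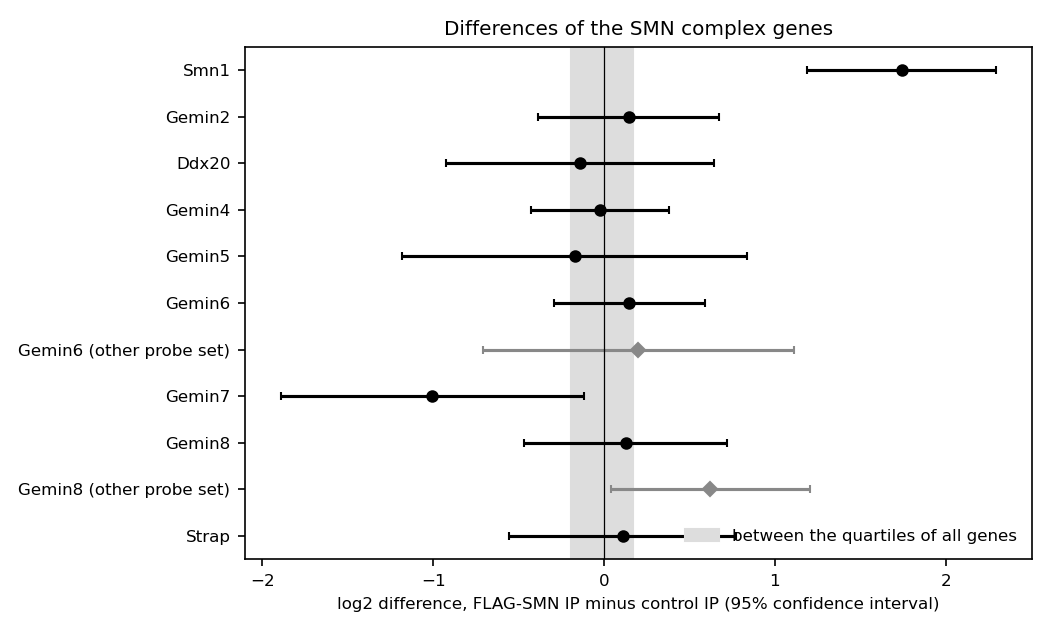
Log2 difference of FLAG-SMN IP minus control IP (horizontal axis) for the SMN complex genes, with 95% confidence intervals from limma; black circles are the brightest probe set of each gene, grey diamonds the dimmer ones of Gemin6 and Gemin8, and the grey band spans the quartiles of all genes, from -0.19 to 0.17. Smn1 lies at 1.74 and Gemin7 at -1.0, both outside the band; the brightest probe sets of the other genes lie within it.

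Over the 9 genes at their brightest probe set, 5 differences were above 0 and 4 below, where 50.4% of all genes were above 0. The median was 0.11, or 0.044 over the 8 genes without Smn1, beside 0.0019 over all genes. None of the 9 passed the adjusted threshold in limma, beside 0.0301% of all genes. The unadjusted p was under 0.05 for 1 higher gene (Smn1) and 1 lower gene (Gemin7), beside 3.25% of all genes higher and 7.21% lower. The groups were apart with FLAG-SMN IP above for 1 gene and with FLAG-SMN IP below for 1 gene, beside 11.0% and 14.8% of all genes. With Gemin8 taken at its chromosome X probe set, an alternative chosen after seeing the data, 2 genes were higher at that nominal level and 2 were apart with FLAG-SMN IP above. At their brightest probe sets Gemin2, Ddx20, Gemin4, Gemin5, Gemin6, Gemin8 and Strap had differences between the quartiles of all genes, -0.19 and 0.17. The dimmer probe sets of Gemin8 (0.62) and Gemin6 (0.20) lay above the upper quartile.

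The intervals state what the 5 arrays can show. For 6 of the 9 genes (Gemin2, Ddx20, Gemin4, Gemin6, Gemin8 and Strap) the 95% interval lay within 1 log2 unit of 0, so a difference of 2-fold fell outside it in either direction. This holds for Gemin8 at its brighter probe set only: the interval of the dimmer one, whose neighbours are on the gene's own chromosome, holds a 2-fold higher level, which leaves 5 genes. The interval of the dimmer Gemin6 probe set, -0.71 to 1.11, also holds a 2-fold higher level, though most of its neighbours are on another chromosome. For Smn1, Gemin5 and Gemin7 the interval reached past 1 log2 unit. The lower bound for Smn1, 1.19, was above the upper bounds of the other 8 genes at their brightest probe sets, of which the highest was 0.84 at Gemin5. The dimmer Gemin8 probe set alone reached 1.20.

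Across the arrays no pattern was common to all 9 genes. After centring each gene on its own mean, control IP replicate 1 held the lowest value of 4 genes and FLAG-SMN IP replicate 3 the highest of 4. Control IP replicate 2 was above control IP replicate 1 for 7 genes, the exceptions being Smn1 and Gemin7. The same 7 genes had FLAG-SMN IP replicate 3 above replicate 2. The share of all genes with these orders was not computed, so they are not read as a trait of the complex. FLAG-SMN IP replicate 1 lay above both of its group's other arrays for 3 genes (Smn1, Gemin2 and Strap) and below both for 4 (Ddx20, Gemin5, Gemin7 and Gemin8). The closest pair of genes was Gemin2 and Strap, with a root mean square difference of 0.10 log2 units over the 5 arrays. The farthest was Smn1 and Gemin7, at 1.45. The gene of the complex nearest to Smn1 was Gemin2, at 0.82, followed by Gemin6 at 0.83. Gemin4, whose 5 arrays lay within 0.13 log2 units, was at 0.89, so 0.82 is near the distance of an almost flat gene.

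**Figure D3:**
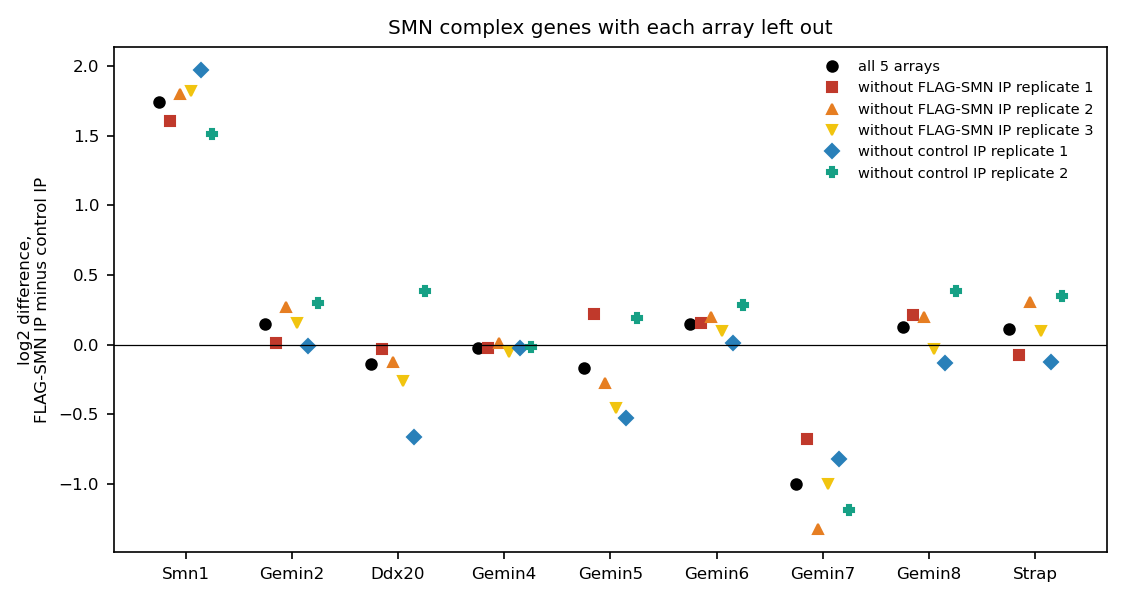
Log2 difference of FLAG-SMN IP minus control IP (vertical axis) for each SMN complex gene with all 5 arrays (black) and with each array left out in turn (coloured markers). Smn1 stays between 1.51 and 1.97 and Gemin7 between -1.33 and -0.68, while Gemin2, Ddx20, Gemin4, Gemin5, Gemin8 and Strap take both signs.

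Some genes outside the complex came closer to the Smn1 pattern, but they were searched for among far more candidates than the complex holds. Their closeness therefore says nothing about the complex. Among 11699 single-symbol probe sets brighter than the median probe set, the 6 nearest by the same root mean square measure over the 5 arrays were Snord47 (0.13), Got1l1 (0.19), Snord33 (0.20), Ctla2b (0.21), Prelid2 (0.21) and a probe set of Gm24463 (0.24). The median over all these probe sets was 0.94. Snord47, a box C/D small nucleolar RNA that lies within the Gas5 host gene, was at 9.34, 9.36 and 9.05 in FLAG-SMN IP and at 7.74 and 7.21 in control IP. As at Smn1, control IP replicate 2 was the lowest array. Snord33, another box C/D RNA, was at 7.34, 6.41 and 6.60 in FLAG-SMN IP and at 5.31 and 5.10 in control IP. These genes were picked for their likeness to Smn1, so their own differences, 1.40 for Ctla2b to 1.86 for Gm24463, follow from that choice and are given as a description.

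The other genes of the assembly pathway were taken from 6 lists by role, of which 63 of 65 genes had a probe set of their own. None passed the adjusted threshold in limma. The unadjusted p was under 0.05 for 5 higher genes (7.94%) and 5 lower genes (7.94%), beside 3.25% and 7.21% of all genes. Those shares include dim genes, whereas each list's median was 7.6 or more on every array, beside 5.25 to 5.39 for all tested probe sets. Counts below with 1 array left out come from refits whose calls changed over all probe sets too. By unadjusted p in limma, 1669 probe sets were higher and 2057 lower without FLAG-SMN IP replicate 1, beside 1166 and 1779 with 5 arrays. Such counts are not read as particular to a list.

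The 6 measured genes of the Sm core proteins, the ring that SMN loads, had a median difference of 0.26, with 4 above 0 and 2 below. In either direction 0 had an unadjusted p under 0.05 in limma. Snrpg, a ring subunit, was at 11.18, 11.68 and 11.31 in FLAG-SMN IP and at 11.06 and 10.60 in control IP, a difference of 0.56 (limma adjusted p = 0.488). Snrpd2 gave 0.51 (adjusted p = 0.503) at its brightest probe set, but its 5 probe sets ran from -0.016 to 0.87. Snrpe had a difference of 0.38 (SE 0.41) and Snrpd3 one of -0.067. The list's median was 0.047 without FLAG-SMN IP replicate 2 and 0.053 without control IP replicate 2. Without FLAG-SMN IP replicate 1, or without control IP replicate 1, 1 gene was higher by unadjusted p. Snrpf and Snrpn had no probe set of their own.

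The LSm genes encode the related rings of U6 snRNA, of messenger RNA decay and of the U7 particle that processes histone messages. Their 10 members divided evenly, 5 above 0 and 5 below, with a median of 0.019. Lsm3 was the 1 gene past an unadjusted p of 0.05, at 9.73, 10.02 and 9.78 in FLAG-SMN IP and 9.49 and 9.19 in control IP. Its FLAG-SMN IP arrays lay above both controls, with a difference of 0.50 (limma adjusted p = 0.445). Lsm11, a U7-specific subunit, gave 0.51 (adjusted p = 0.506), and Lsm8, the subunit specific to the nuclear U6 ring, gave -0.90 (adjusted p = 0.48). Lsm7 had -0.33 at its brighter probe set and 0.097 at the other. Leaving out FLAG-SMN IP replicate 1 gave 2 genes higher by unadjusted p and leaving out control IP replicate 1 gave 3, while 0 were higher without FLAG-SMN IP replicate 2 or control IP replicate 2; 1 was lower without FLAG-SMN IP replicate 1 or 3.

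The methylosome methylates Sm proteins before they reach SMN, and pICln (Clns1a) holds them there. Of 6 genes, 2 were lower and 0 higher by that nominal criterion, and the list median was 0.057. The lower ones were Prmt5, the arginine methyltransferase, and Wdr77, its obligate partner. Wdr77 was at 8.73, 8.50 and 8.55 in FLAG-SMN IP and at 9.16 and 9.18 in control IP. Both control arrays lay above all FLAG-SMN IP arrays, with a difference of -0.57 (SE 0.18, limma adjusted p = 0.313). Prmt5 was at 7.77, 8.53 and 8.80 in FLAG-SMN IP and at 8.98 and 9.49 in control IP, which was also apart, with a difference of -0.87 (SE 0.34, adjusted p = 0.433). Without FLAG-SMN IP replicate 2, and likewise without control IP replicate 2, neither had an unadjusted p under 0.05, and without FLAG-SMN IP replicate 3 only 1 did. Clns1a, by contrast, had a positive difference of 0.34 (SE 0.41), with FLAG-SMN IP replicate 1 at 10.04 and the other arrays between 8.59 and 8.95. Riok1, a kinase that recruits other substrates to Prmt5, gave 0.43 (SE 0.41).

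Genes that carry snRNAs out of the nucleus and back, or modify their cap, had 7 of 9 differences above 0, a median of 0.083 and 0 genes past the nominal criterion in limma. Snupn (snurportin), the import adaptor that reads the mature cap, was at 6.24, 5.42 and 5.47 in FLAG-SMN IP and at 5.08 and 5.35 in control IP. Its groups were apart by a small margin, with a difference of 0.50 (limma adjusted p = 0.664). The export adaptor gene Phax gave 0.35, the cap-binding subunit gene Ncbp1 -0.38 and the transport GTPase gene Ran 0.083, each with overlapping groups. The list's median was -0.070 without control IP replicate 1 and 0.30 without control IP replicate 2.

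Genes of the Cajal body and of the guide RNA particles found there had a median of -0.22, with 3 of 11 above 0. By the nominal criterion 2 were higher and 1 lower. Wrap53, which brings guide RNAs and telomerase RNA to Cajal bodies, was at 7.94, 7.23 and 7.76 in FLAG-SMN IP and at 6.71 and 6.92 in control IP. All its FLAG-SMN IP arrays were above both controls, with a difference of 0.83 (SE 0.25, limma adjusted p = 0.311). Nhp2 gave 0.46 (SE 0.17, adjusted p = 0.407) and Dkc1, the pseudouridine synthase, -0.93 (SE 0.24, adjusted p = 0.248). Both encode core proteins of the same box H/ACA particle, as do Nop10 (-0.25, adjusted p = 0.918) and Gar1 (-0.22, adjusted p = 0.938). Gar1 was named after its value was seen. Of these genes only Nhp2 was above 0. With any FLAG-SMN IP array or control IP replicate 2 left out, 1 gene was higher by unadjusted p, and without control IP replicate 1 there were 0; the lower call was lost without control IP replicate 2. The list's median was between -0.092 and -0.061 without control IP replicate 1 or 2, and -0.078 without FLAG-SMN IP replicate 1.

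**Figure D4:**
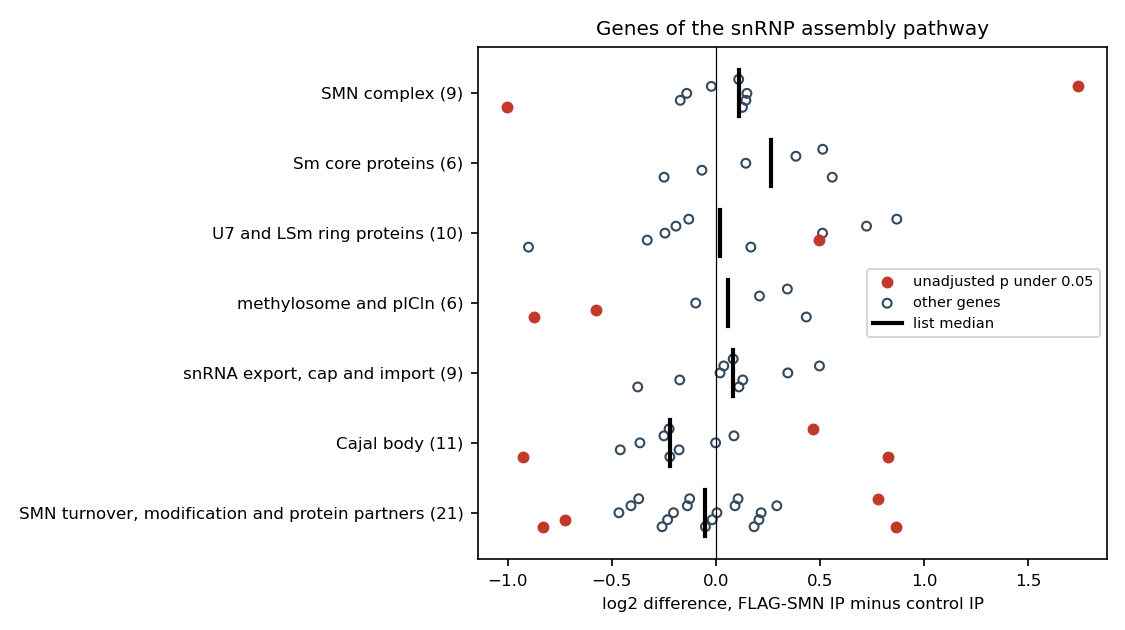
Log2 difference of FLAG-SMN IP minus control IP (horizontal axis) for the SMN complex genes and the 6 role lists, with the number of measured genes in brackets; filled red points have an unadjusted p under 0.05 in limma, open points do not, and black bars are list medians. The medians lie between -0.22 (Cajal body) and 0.26 (Sm core proteins), and Smn1, at 1.74, has the highest difference among all genes shown.

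Among 21 measured genes for SMN turnover, modification and protein partners, 9 differences were above 0 and the median was -0.050. By the nominal criterion 2 were higher and 2 lower. Smndc1, which encodes a splicing factor with a Tudor domain related to that of SMN, was at 9.27, 8.79 and 8.93 in FLAG-SMN IP and at 8.08 and 8.35 in control IP. The groups were apart, with a difference of 0.78 (SE 0.22, limma adjusted p = 0.268), and its other probe set gave 0.42. For neither probe set were the neighbours in ID order looked at. Ostf1 gave 0.87 (SE 0.30, adjusted p = 0.373), and Pfn1, an actin-binding profilin, -0.83 (SE 0.31, adjusted p = 0.421). The second lower gene, Elavl4, encodes the neuronal RNA-binding protein HuD and had -0.73 (SE 0.28, adjusted p = 0.425); it was named after its value was seen. Without control IP replicate 1 the list had 0 higher genes and without control IP replicate 2 it had 1. The lower genes numbered 1 without FLAG-SMN IP replicate 2 and 0 without FLAG-SMN IP replicate 3 or control IP replicate 2.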

How the data were processed

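The authors deposited 1 table of log2 values made with RMA, per the submitters' processing notes; no version or settings are stated there. That the scale is log2 was judged from its lowest and highest entries, 1.28 and 14.15. RMA quantile-normalizes the arrays, so a general difference in recovered RNA is not visible, and the number of arrays limits the precision. Per the labels' protocols, 300 to 500 ng of precipitated RNA was labelled.

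Titles gave each sample's group and replicate number. The 6573 of 34760 probe sets with IDs below the lowest annotated ID were presumed to be controls and not tested. Of the 28187 kept, 21640 carried 1 gene symbol, 1321 several and 5226 none. A gene stands for its brightest single-symbol probe set. The fit used limma 3.58.1 in R 4.3.3 (lmFit, eBayes, 2-sided, 3 residual and 3.8 prior degrees of freedom) with Benjamini-Hochberg adjustment over all tested probe sets. Chromosomes came from RefSeq (GRCm38.p6); positions are left out, since no build is stated for the arrays.

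The members, lists and the processing were chosen with earlier results of these data known. The naming rule took all members, the 3 genes of smallest unadjusted p and the brightest gene of each role list, and the 6 genes nearest to Smn1. Lists are described by counts and medians, without a test; 2 genes first listed as SMN partners are not reported here. The fit was tested on simulated data. Same-numbered arrays of the groups are not stated to be paired. Figures used matplotlib 3.10.9 in Python 3.11.15.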

Additional observations from a re-analysis of the deposited data

How the results depend on the processing

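The number of probe sets past the adjusted threshold in limma, 9 with all 5 arrays (2945 at an unadjusted p under 0.05), was 41 with each array centred on its brighter probe sets (16 higher, 25 lower), and 0 with cyclic loess scaling (by unadjusted p under 0.05, 1400 higher and 1781 lower), with all 34760 probe sets (1236 and 2125) and with the replicate number as a block (998 and 1551). With 1 array left out it ran from 0 to 350: it was 350 without FLAG-SMN IP replicate 1 and 0 without any other array (by unadjusted p, 870 to 1080 higher and 1009 to 1755 lower); a lone control array was assumed to vary like the other arrays. Smn1 kept a positive difference in every alternative, from 1.51 to 1.97. It passed without FLAG-SMN IP replicate 1 and when each gene's probe sets were averaged and 19937 genes tested in place of all probe sets (1.74, adjusted p = 0.0442), and its adjusted p otherwise lay above the threshold, reaching 0.596 without control IP replicate 2. With probe sets averaged, 10 genes passed higher and 44 lower in limma, beside 6 genes with adjustment over all probe sets. The Smn1 difference itself did not change with averaging. With the replicate block the Smn1 difference was 1.82 (adjusted p = 0.122).

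Gemin7 was negative and did not pass in any alternative. With single arrays left out, the difference ran from -0.0093 to 0.30 for Gemin2, -0.66 to 0.38 for Ddx20, -0.051 to 0.013 for Gemin4, -0.53 to 0.22 for Gemin5, -0.13 to 0.39 for Gemin8 and -0.13 to 0.35 for Strap, and the median of the 9 genes from -0.13 to 0.30. Gemin4 was also positive with centring on the brighter probe sets (0.0125), and Gemin8 negative with the replicate block (-0.029). The causes were not tested. The numbers were not taken as pairs, since no pairing is stated. Same-numbered arrays had deviations from their group means correlated at 0.13 for number 1 and -0.20 for number 2. These values cannot show whether the arrays were paired, because the deviations of the 2 control arrays mirror each other. The Gemin8 probe set among chromosome X neighbours, an alternative chosen after seeing the data, gave 0.62 (adjusted p = 0.439) and left the median of the 9 genes at 0.11, with 2 in place of 1 of them higher at an unadjusted p under 0.05.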
